A study of Rattus norvegicus with 12 samples.

Results

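The 9 genes described here encode secreted enzymes that act on the extracellular matrix, directly or by activating other proteases, and an inhibitor of metalloproteinases. They are the matrix metalloproteinases Mmp3, Mmp9, Mmp10 and Mmp13, the heparan sulfate-cleaving enzyme heparanase (Hpse) and the tissue inhibitor of metalloproteinases Timp1. The others are the proteoglycan-cleaving protease Adamts1 and the plasminogen activators Plat (tissue type) and Plau (urokinase type). All 9 were found by gene name on the array, where each is read by 1 probe, out of 35716 names and 41012 probes. The 9 were selected on their differences in signal between the groups on these same arrays, so what follows about the 9 genes is a description of their levels and carries no p-value. The genes of the related families were listed by family and were tested across the whole array. These lists too were chosen with earlier results of these data known, and their adjusted p-values are to be read with that limit.

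The study asked how lasting changes in network activity alter gene expression in hippocampal neurons. Neurons from Sprague-Dawley rat embryos late in gestation were grown as dissociated, high-density cultures and treated at 10 to 13 days in vitro for 48 h. The 3 groups were vehicle control (CTL, given in the labels as 0.1% DMSO and in the methods text as water at the same share), TTX (tetrodotoxin at 0.5 to 1 µM), a blocker of sodium channels that silences action potentials, and BC (bicuculline at 20 µM), an antagonist of the GABA-A receptor that blocks fast inhibition and drives burst firing. Each group had 4 RNA samples, each hybridised alone to a one-colour Agilent rat array, and every one of the 4 slides carried 1 array of each group.

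Matrix metalloproteinases are made as inactive proenzymes that are activated by other proteases, plasmin among them, and are held in check by the TIMP proteins, which bind their active site. Plasmin itself is cut from plasminogen by the plasminogen activators. In the brain these enzymes act on perineuronal nets and on other matrix around synapses, several of them are known as genes that respond to neuronal activity, and heparanase cuts the heparan sulfate chains that syndecans and glypicans carry at the cell surface.

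Mmp3, Mmp10 and Mmp13 lie in a cluster of metalloproteinase genes on chromosome 8, and the promoters of several genes of this family are known for an AP-1 site, bound by Fos and Jun proteins, upstream of a TATA box. The 250 bases before the annotated start are shown for these 3 genes because they share these elements while their signals on the arrays differed, and for Hpse because its signal spanned the widest range of the 9 (RefSeq, assembly GRCr8, 5′ to 3′ on the gene's own strand). Capitals mark each match, on either strand, to the AP-1 element TGANTCA, the ETS (PEA3) element AGGAAG, the cAMP response element TGACGTCA or the TATA element TATAAA.
Mmp3 promoter, chr8:12925031-12925280, plus strand: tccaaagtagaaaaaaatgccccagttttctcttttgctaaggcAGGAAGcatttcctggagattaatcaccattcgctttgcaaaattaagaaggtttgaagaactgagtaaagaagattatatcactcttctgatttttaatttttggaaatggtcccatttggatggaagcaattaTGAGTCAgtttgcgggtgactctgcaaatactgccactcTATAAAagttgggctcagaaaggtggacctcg
Mmp10 promoter, chr8:12974457-12974706, plus strand: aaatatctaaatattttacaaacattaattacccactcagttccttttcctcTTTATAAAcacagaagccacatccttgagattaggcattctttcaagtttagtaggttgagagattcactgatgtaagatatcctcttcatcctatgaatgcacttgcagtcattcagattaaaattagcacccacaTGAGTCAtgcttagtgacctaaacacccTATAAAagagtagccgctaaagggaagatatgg
Mmp13 promoter, chr8:12782579-12782828, plus strand: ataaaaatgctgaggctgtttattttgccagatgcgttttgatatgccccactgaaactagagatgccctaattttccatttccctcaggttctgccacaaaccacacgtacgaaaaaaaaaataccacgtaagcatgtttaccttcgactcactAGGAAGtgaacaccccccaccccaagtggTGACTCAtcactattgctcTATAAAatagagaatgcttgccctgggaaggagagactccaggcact
Hpse promoter, chr14:9200721-9200970, plus strand: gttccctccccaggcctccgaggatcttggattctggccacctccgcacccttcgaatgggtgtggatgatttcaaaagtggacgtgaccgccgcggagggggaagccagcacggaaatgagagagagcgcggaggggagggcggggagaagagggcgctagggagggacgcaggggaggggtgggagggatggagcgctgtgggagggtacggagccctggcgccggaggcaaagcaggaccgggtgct
The AP-1 element was present in Mmp3 (bases 71 to 65 before the start), Mmp10 (61 to 55) and Mmp13 (66 to 60), and in 6.34% of all 33469 promoters of this length. Each of the 3 also had a TATA element closer to the start, at bases 32 to 27 in Mmp3, 33 to 28 in Mmp10 and 47 to 42 in Mmp13, an element found in 12.9% of all promoters. In Mmp10 a second pair of TATA matches, 1 on each strand, overlapped at bases 198 to 191. The ETS element stood in Mmp3 and Mmp13, and also in Timp1, against 29.5% of all promoters. The cAMP response element, found in 1.59% of all promoters, was in none of the 7 of 9 genes that the sequence table held. In the Hpse window none of the 4 sets of letters occurred. These matches describe letters in a window and no binding was measured.

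The array probes are 60 bases long. Those of Mmp3 and Mmp10, which encode the closely related stromelysins 1 and 2, are shown because the signals of these neighbours stood far apart.
Mmp3 probe: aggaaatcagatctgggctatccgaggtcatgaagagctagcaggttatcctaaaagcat
Mmp10 probe: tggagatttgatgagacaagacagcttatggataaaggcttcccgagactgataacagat
The array files place the Mmp3 probe at chr8:4325061-4325526 and the Mmp10 probe at chr8:4373403-4374134 of the rat build rn4, spans longer than the probes themselves. The other probes were placed, in the same build, at chr8:4168554-4168613 for Mmp13, chr3:155992463-155992522 for Mmp9, chr14:10184472-10184531 for Hpse, chrX:12542700-12543703 for Timp1, chr11:25434208-25434267 for Adamts1, chr16:73717402-73717547 for Plat and chr15:3680711-3680770 for Plau. No exon annotation of that build was used here, so the position of each probe within its gene's exons is not given.

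Signal was measured as log2 of the background-subtracted spot intensity after quantile normalization, and a spot counted as measured where the scanner software called it well above background. Between 74.1% and 78.1% of the probes on an array were well above background. On all 12 arrays 6 of the 9 genes were so: Mmp3, Mmp9, Mmp13, Hpse, Timp1 and Plat. Mmp10 was well above background on no array, Adamts1 on 2 CTL, 1 TTX and 3 BC arrays, and Plau on 1 CTL, no TTX and 2 BC arrays. Arrays of slides 1 and 3 and arrays of slides 2 and 4 deviated together across groups, so within-slide differences are given beside the group means. The check genes Gfap, Rbfox3 and Slc17a7 did not pass the test in either comparison with CTL, and Gapdh differed by -0.26 (SE 0.0691, limma adjusted p = 0.037) with TTX, under the fold threshold.

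Hpse had the widest range. Its log2 signal was 7.70, 7.66, 8.15 and 7.36 on the 4 CTL arrays, 10.55, 10.83, 11.14 and 10.75 on the BC arrays, and 5.65, 5.67, 5.71 and 5.85 on the TTX arrays. The 3 groups did not overlap, with every TTX array below every CTL array and every BC array above them. Hpse was 8.56 times as high with BC as with CTL (log2 difference 3.10, SE 0.162, n = 4 and 4) and lower with TTX by a log2 difference of -2.00 (SE 0.162, ratio 0.25). Within slides the BC difference was 2.67 to 3.44 and the TTX difference -2.30 to -1.65. With other background corrections or the authors' own log2 values the TTX difference shrank to between -1.36 and -1.27 and kept its call. In bulk RNA such as this, fewer cells that make a transcript and less of it in each cell cannot be told apart.

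Mmp3, stromelysin 1, which cuts proteoglycans and activates other metalloproteinases, was high with BC alone. Its log2 signal was 3.95, 4.36, 5.33 and 3.81 on the CTL arrays, 6.94, 7.26, 7.59 and 7.28 on the BC arrays, and 5.05, 4.21, 3.98 and 4.22 on the TTX arrays. All BC arrays lay above all others, whereas TTX and CTL arrays were intermingled. The BC difference was 2.91 (SE 0.332, 7.49 times CTL), 1.93 to 3.64 within slides. The TTX difference was 0.00 (SE 0.332), positive on 3 of 4 slides and -1.11 on the other, where the CTL array was the highest of its group. Without background subtraction the BC difference came to 1.51, and to 1.37 with a normexp background.

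Mmp9, gelatinase B, which acts on gelatin and on matrix and adhesion proteins at synapses, followed the order TTX, CTL, BC. Its log2 signal was 4.93, 5.55, 6.25 and 4.42 on the CTL arrays, 7.09, 6.82, 7.76 and 7.35 on the BC arrays, and 4.26, 4.04, 3.85 and 4.74 on the TTX arrays. The BC arrays stood apart from CTL, but by less than the spread among the CTL arrays, and 1 CTL array fell among the TTX arrays. The BC difference was 1.96 (SE 0.366, 3.90 times CTL), and 0.57 to 2.83 within slides. Its BC call was lost in 3 of 27 alternatives. The TTX difference was -1.07 (SE 0.366), below CTL on 4 of 4 slides (-1.52 to -0.57). It did not pass the threshold with all arrays, and it did (-1.36) when CTL replicate 4, the lowest CTL array, was left out. With a normexp background the differences were 1.06 and -0.36.

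Mmp13, collagenase 3, which cuts fibrillar collagen, had a smaller difference in the same order. Its log2 signal was 4.85, 4.72, 5.37 and 5.02 on the CTL arrays, 5.79, 6.12, 5.97 and 5.78 on the BC arrays, and 4.36, 4.56, 4.75 and 4.89 on the TTX arrays. BC arrays were above all others, and TTX and CTL overlapped. The BC difference was 0.92 (SE 0.157, 1.90 times CTL), 0.75 to 1.12 within slides. The TTX difference was -0.35 (SE 0.157), negative on 4 of 4 slides (-0.48 to -0.27) and not past the threshold. The call depended on background handling: the BC difference was 0.38 with normexp, 0.45 without subtraction and 0.46 in the authors' log2 values, and it no longer passed in any of these.

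Timp1, which binds and blocks metalloproteinases, Mmp3 and Mmp9 among them, was measured on every array. Its log2 signal was 10.90, 10.95, 11.04 and 10.84 on the CTL arrays, 11.23, 11.32, 11.79 and 11.93 on the BC arrays, and 10.95, 11.13, 10.72 and 10.69 on the TTX arrays. The BC arrays fell into a high pair, from slides 1 and 3, and a lower pair, from slides 2 and 4, each above all CTL arrays. The BC difference was 0.63 (SE 0.16, 1.55 times CTL), made of 0.93 on slides 1 and 3 and 0.33 on slides 2 and 4, so that only the first pair exceeded the fold threshold by itself. Its call was lost in 13 of 27 alternative settings, among them leaving out any 1 of the 4 CTL arrays, BC replicate 3 or 4, or TTX replicate 1 (difference 0.51 to 0.67). The TTX difference was -0.06 (SE 0.16).

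**Figure D1:**
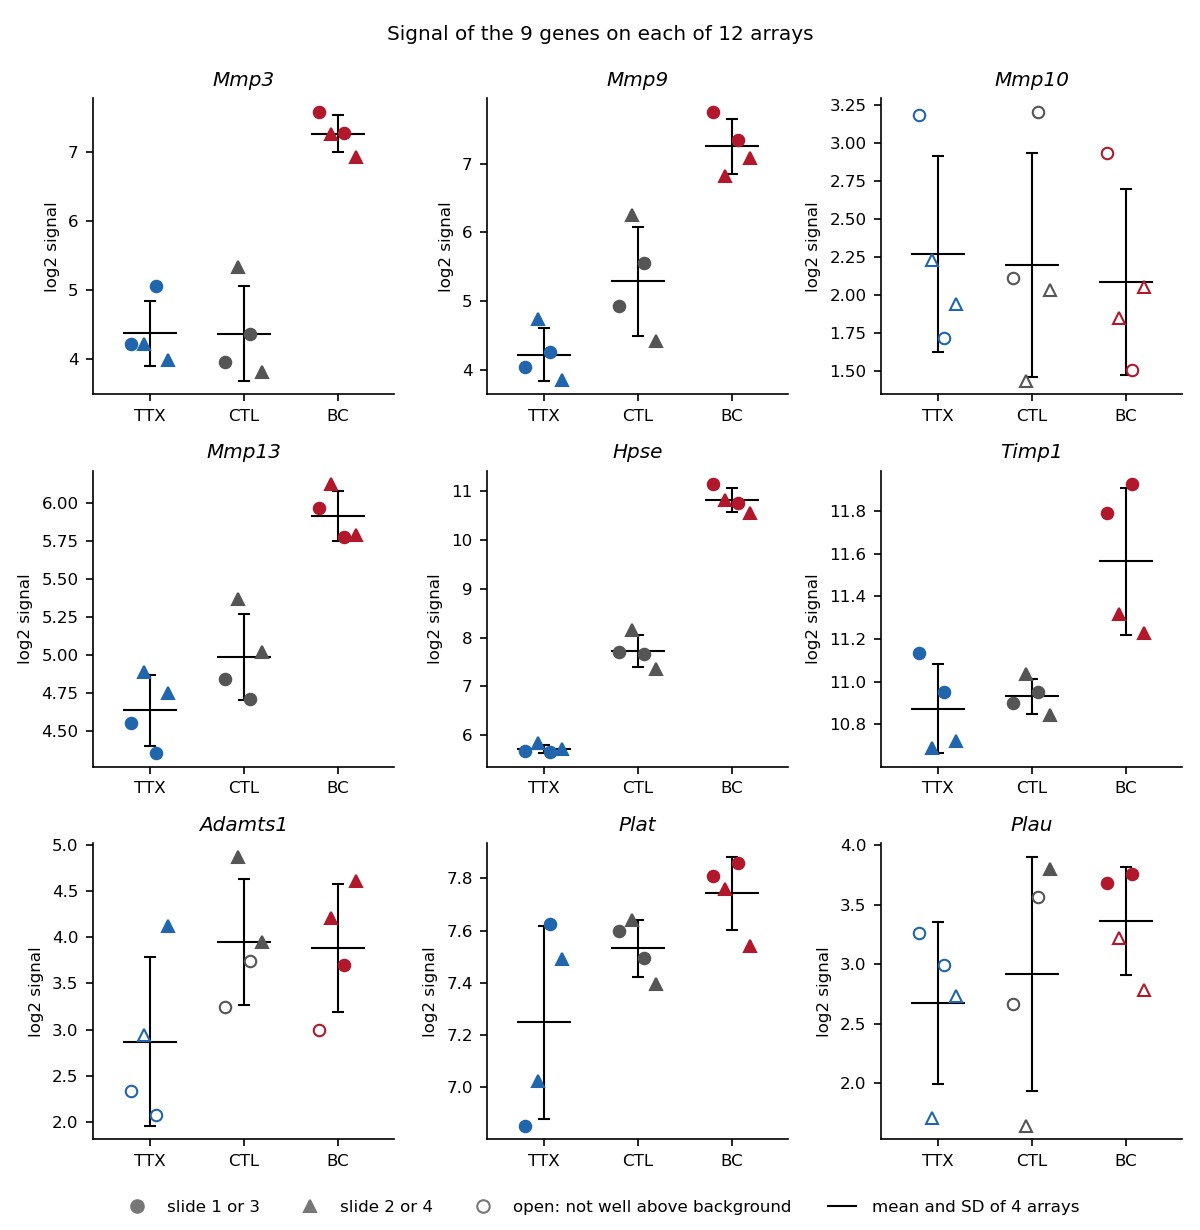
Log2 signal (vertical axis, a separate scale for each gene) of the 9 genes on each array, by group, with circles for slides 1 and 3, triangles for slides 2 and 4, open symbols where the spot was not well above background, and bars for the mean and SD of 4 arrays. BC arrays of Mmp3, Mmp9, Mmp13, Hpse and Timp1 lie above all CTL arrays, and Hpse is the one gene whose TTX arrays lie below all CTL arrays.

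Plat, tissue plasminogen activator, was measured everywhere and differed little. Its log2 signal was 7.60, 7.49, 7.64 and 7.40 on the CTL arrays, 7.54, 7.76, 7.81 and 7.86 on the BC arrays, and 7.63, 6.85, 7.49 and 7.03 on the TTX arrays. The groups overlapped in every comparison. The BC difference was 0.21 (SE 0.16) and the TTX difference -0.28 (SE 0.16), and neither passed. Within slides BC was above CTL on 4 of 4, by 0.12 to 0.37. Against BC, the TTX difference of -0.49 (SE 0.16) stayed under the fold threshold and exceeded it (-0.62) when TTX replicate 1 was left out.

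For the other members the arrays gave no usable level in most groups. Mmp10, stromelysin 2, ranged from 1.44 to 3.21 on the CTL arrays, 1.51 to 2.94 on the BC arrays and 1.72 to 3.18 on the TTX arrays, none of them well above background. Adamts1, which cuts aggrecan and versican, ranged from 3.24 to 4.87 on the CTL arrays, 3.00 to 4.61 on the BC arrays and 2.08 to 4.13 on the TTX arrays. Plau, urokinase, ranged from 1.64 to 3.80, 2.78 to 3.75 and 1.71 to 3.26 on the CTL, BC and TTX arrays. All 3 genes overlapped between all groups. Adamts1 had a TTX difference of -1.08 (SE 0.504), resting on 1 TTX array above background, that did not pass. It passed with the replicate number as a block in a fit of CTL and TTX alone and with the slide pair as a block, but not with averaged slide pairs. Against BC it did not pass in the main fit and passed in 4 of 26 alternatives. Among these were the slide or the slide pair as a block, and the fit without TTX replicate 3, which leaves no TTX array above background. No difference against BC is given.

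**Figure D2:**
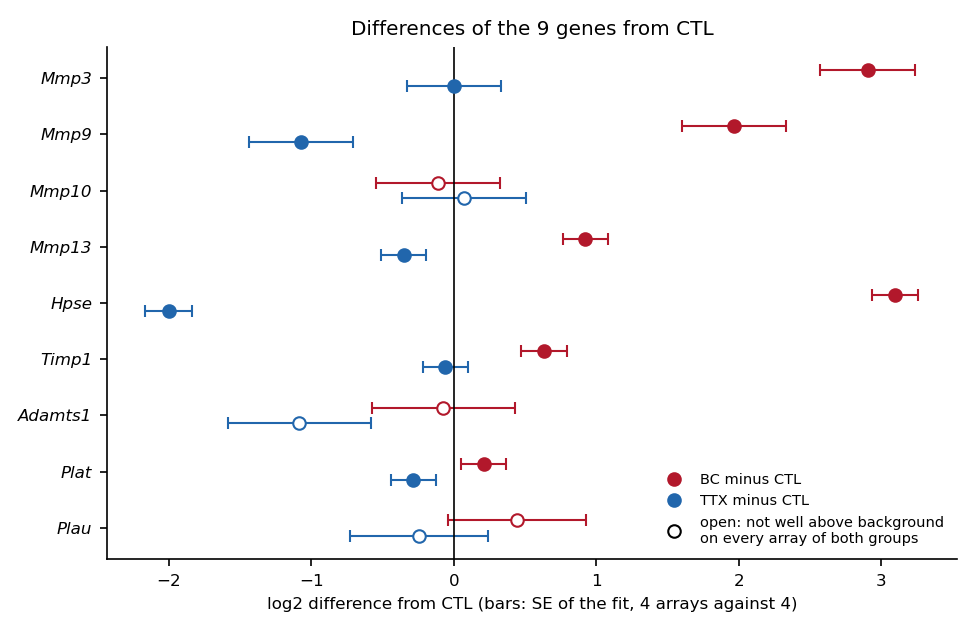
Log2 difference from CTL (horizontal axis) of the 9 genes with BC and with TTX, with bars for the SE of the fit over 4 arrays against 4 and open symbols for genes that were not measured above background throughout both groups. With BC the differences run from 3.10 in Hpse to -0.11 in Mmp10, and with TTX Hpse has the most negative difference, -2.00.

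With BC against CTL, 5 of the 9 genes passed the threshold (adjusted p under 0.05 over all probes and a fold change of at least 1.5), all of them higher, beside 3.6% of all 35711 genes tested (2.14% higher). The 5 were Mmp3, Mmp9, Mmp13, Hpse and Timp1. In these 5 the groups did not overlap, as in 13.6% of all genes. With TTX against CTL, Hpse passed, lower, beside 4.18% of all genes (2.7% lower), and it alone of the 9 did not overlap, against 15.6% of all genes. With TTX against BC the same 5 genes were lower, beside 10.9% of all genes (6.19% lower and 4.68% higher) and with no overlap, as in 25.9% of all genes, at log2 differences of -5.10 for Hpse, -3.03 for Mmp9, -2.90 for Mmp3, -1.28 for Mmp13 and -0.69 for Timp1. The Timp1 call was lost in 3 of 27 alternatives, among them the fit without BC replicate 4 (-0.57). Mmp13 did not pass with normexp (-0.48), without background subtraction (-0.58) or in the authors' log2 values (-0.58). The median difference of the 9 was 0.63 with BC and -0.28 with TTX, where the median of all genes was -0.01 and 0.01. Since these contrasts were known when the genes were picked, the shares are given as description. All comparisons with CTL rest on the same 4 CTL arrays. With the replicate number as a block in a fit of BC and CTL alone, Mmp3 and Hpse passed and the other 3 did not. When the arrays of a group on the same pair of slides were averaged, which leaves few degrees of freedom, no gene on the array passed with BC in limma, the 9 included (7834 of 35711 genes had an unadjusted p under 0.05), and Hpse alone of the 9 passed with TTX.

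**Figure D3:**
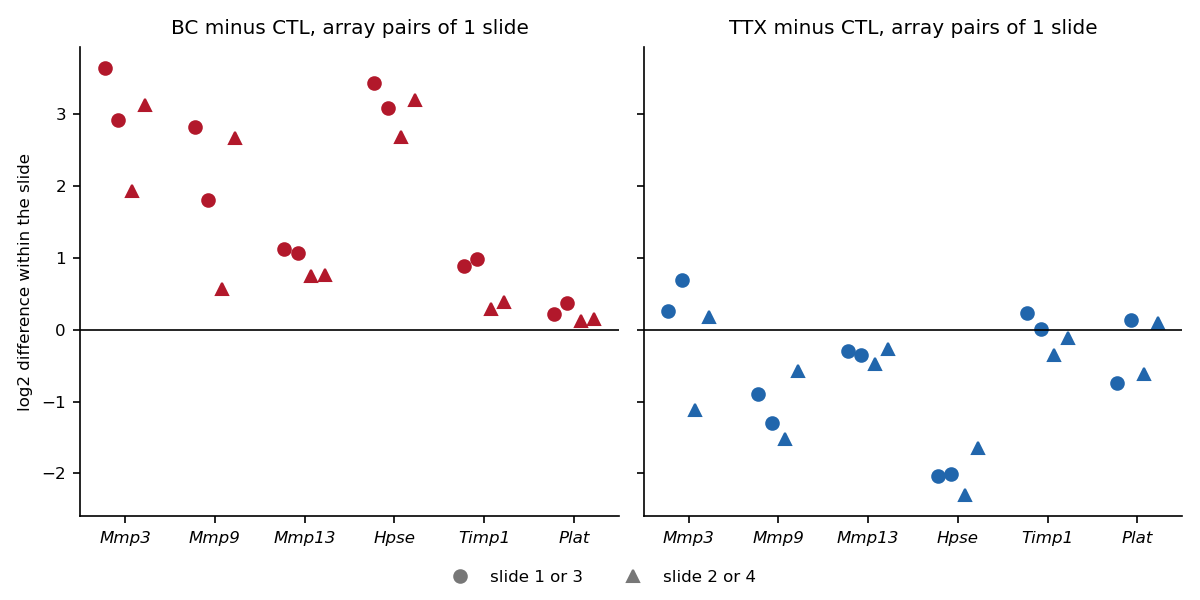
Log2 difference from CTL between the 2 arrays of the same slide (vertical axis) for the 6 genes well above background on all arrays, BC at left and TTX at right, 1 point for each slide (circles, slides 1 and 3; triangles, slides 2 and 4). With BC all 6 genes are above 0 on 4 of 4 slides; with TTX Hpse, Mmp9 and Mmp13 are below 0 on 4 of 4.

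The related families were then read for the same comparisons, in 7 lists holding 124 genes on the array. With BC, 11 of these genes rose and 7 fell, 14.5% of the 124, beside 3.6% of all genes (2.14% higher and 1.47% lower). With TTX, 7 rose and 17 fell, 19.4% of the 124, beside 4.18% of all genes (1.48% higher and 2.7% lower). The counts of each list and of the marker lists below are to be read beside the same shares. The median difference over the 124 genes was 0.03 in both comparisons. With averaged slide pairs none passed with BC in limma (48 had an unadjusted p under 0.05) and 4 passed with TTX.

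Among 19 other matrix metalloproteinases, 1 rose and 1 fell with BC. Mmp12, macrophage elastase, stayed under the background threshold on all CTL and TTX arrays (log2 signal 1.37 to 2.36 and 1.30 to 2.64). It was well above background on all 4 BC arrays (5.20 to 5.61), at least 3.63-fold higher in the main processing (limma adjusted p = 0.00012). Over the 27 alternatives its BC difference ran from 0.68 to 3.50, and the call was lost in 1. Mmp28, epilysin, fell (-1.22, SE 0.275, adjusted p = 0.0203), a call lost in 8 of 27 alternatives. With TTX, Mmp17, a membrane-anchored metalloproteinase, fell (-0.99, SE 0.183, adjusted p = 0.00639). Mmp2, gelatinase A, rose by its brighter probe (0.93, SE 0.176, adjusted p = 0.00736) and its other probe did not pass.

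Mmp12 is the neighbour of Mmp13 in the chromosome 8 cluster, whose 10 genes were all on the array in the order Mmp13, Mmp12, Mmp1b, Mmp3, Mmp1, Mmp10, Mmp8, Mmp27, Mmp20 and Mmp7 (RefSeq GRCr8). Mmp13, Mmp12 and Mmp3 passed with BC, all higher. Mmp1b, which lies between Mmp12 and Mmp3, was well above background on all 12 arrays and did not pass with BC (-0.10, SE 0.263, adjusted p = 0.944) or TTX (-0.10, SE 0.263, adjusted p = 0.925). Mmp1, Mmp10, Mmp8, Mmp20 and Mmp7 were well above background on no array, and Mmp27 on 1 TTX and 1 BC array. These paralogues are similar in sequence, and how far a probe binds the transcript of a neighbour was not tested.

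**Figure D4:**
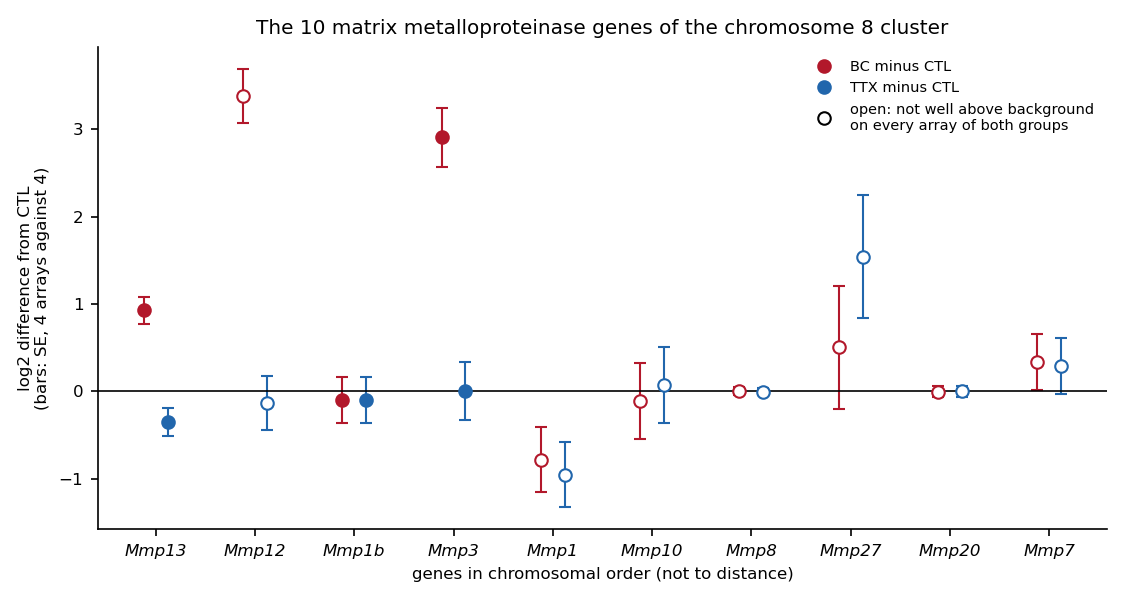
Log2 difference from CTL (vertical axis) with BC and TTX for the 10 metalloproteinase genes of the cluster, in their order along chromosome 8 (horizontal axis, not to distance), with bars for the SE over 4 arrays against 4 and open symbols for genes not well above background on at least 1 array of the groups compared. Mmp13, Mmp12 and Mmp3 stand above 0 with BC, and Mmp1b, between Mmp12 and Mmp3, stands at -0.10.

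Of 14 proteases of the ADAMTS family other than Adamts1, 1 fell and none rose with BC. Adamts5, an aggrecanase, fell (-0.70, SE 0.172, adjusted p = 0.0296), a call lost in 13 of 27 alternatives. With TTX, Adamts7 rose (0.97, SE 0.13, adjusted p = 0.00103) and Adamts19 and Adamts8 fell (-1.36, SE 0.198, adjusted p = 0.00166 and -0.83, SE 0.159, adjusted p = 0.00997), where Adamts19 was well above background on only 1 TTX array and its second, dim probe did not pass. Of 5 inhibitors of metalloproteinases besides Timp1, only the broad protease inhibitor A2m passed against CTL. It fell with BC (-0.78, SE 0.0791, adjusted p = 0.000223) and rose with TTX (0.99, SE 0.0791, adjusted p = 4.03e-05). Timp2 and Timp3, well above background on every array, did not pass in either comparison, with differences of -0.01 and -0.13 with BC and 0.16 and 0.48 with TTX. Timp3 with TTX had a limma adjusted p of 0.0381 and stayed under the fold threshold.

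In the plasminogen system other than Plat and Plau, 3 of 18 genes rose and none fell with BC, and 5 fell and none rose with TTX. Plaur, the cell-surface receptor of urokinase, rose with BC (1.56, SE 0.241, adjusted p = 0.00258). With TTX it fell below the background threshold on all 4 arrays, at least 1.59-fold lower (adjusted p = 0.0169). This TTX call was lost in 8 of 27 alternatives, whose differences ran from -1.28 to -0.21. F2, prothrombin, rose with BC (1.28, SE 0.117, adjusted p = 0.000122) and fell with TTX (-1.10, SE 0.117, adjusted p = 0.00024). Serpinb2, an inhibitor of plasminogen activators, rose with BC (0.64, SE 0.106, adjusted p = 0.00375). The TTX calls also held Anxa2, a plasminogen-binding protein (-0.77), and Thbd, thrombomodulin, for which no fold is given, since it was well above background on no CTL or TTX array. Plg, plasminogen itself, was well above background on 1 CTL, 1 TTX and no BC array. Of 8 other extracellular serine proteases, Prss35 fell with BC (-1.40, SE 0.153, adjusted p = 0.000319) and rose with TTX (0.67, SE 0.153, adjusted p = 0.0188). Klk8, neuropsin, fell in both comparisons (-1.13, SE 0.306, adjusted p = 0.0466 and -1.28, SE 0.306, adjusted p = 0.0234), each with 3 treated arrays above background, calls lost in 17 and 12 of 27 alternatives.

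The substrates and makers of heparan sulfate, which Hpse cuts, held 30 genes on the array. With BC 4 rose and none fell, and with TTX 2 rose and 6 fell. Hs3st1, a heparan sulfate 3-O-sulfotransferase, rose with BC (1.07, SE 0.147, adjusted p = 0.00132) and fell with TTX (-1.04, SE 0.147, adjusted p = 0.00141). Gpc4, a glypican, did likewise (0.60, SE 0.113, adjusted p = 0.00813 and -0.96, SE 0.113, adjusted p = 0.000471). Its BC call was lost in 9 of 27 alternatives. Sdc1, syndecan 1, rose with BC (0.94, SE 0.175, adjusted p = 0.0076). Ndst3, a sulfotransferase of heparan sulfate chains, reached measurable signal on 3 BC arrays and no CTL array, at least 1.39-fold higher (adjusted p = 0.00437). Over the alternatives its BC difference ran from 0.19 to 1.22. Its TTX call has no fold, since neither group was above background. Hs3st2 fell with TTX (-0.82, SE 0.0986, adjusted p = 0.000509). The 2 that rose with TTX, opposite to Hpse, were also a syndecan and a glypican. They were Sdc2 (0.59, SE 0.0949, adjusted p = 0.0028) and Gpc2 (0.80, SE 0.183, adjusted p = 0.0195).

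Of 30 genes of perineuronal nets and brain matrix, 3 rose and 2 fell with BC, and 1 rose and 2 fell with TTX. Tnc, tenascin C, rose with BC (0.96, SE 0.166, adjusted p = 0.00518), as did Spp1, osteopontin, which Mmp3 can cut (0.81, SE 0.21, adjusted p = 0.0392, lost in 16 of 27 alternatives). Has1, a hyaluronan synthase, and Matn2, a matrilin, fell with BC (-1.19, SE 0.218, adjusted p = 0.00702 and -1.05, SE 0.128, adjusted p = 0.000619), and Matn2 rose with TTX (0.61, SE 0.128, adjusted p = 0.0128). Hapln1, the link protein of perineuronal nets, fell with TTX (-1.54, SE 0.248, adjusted p = 0.00295). Has2, another hyaluronan synthase, was well above background on 3 CTL arrays and no TTX array, at least 1.54-fold lower (adjusted p = 0.0218). Its call was lost in 12 of 26 alternatives, whose differences ran from -2.25 to -0.30.

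**Figure D5:**
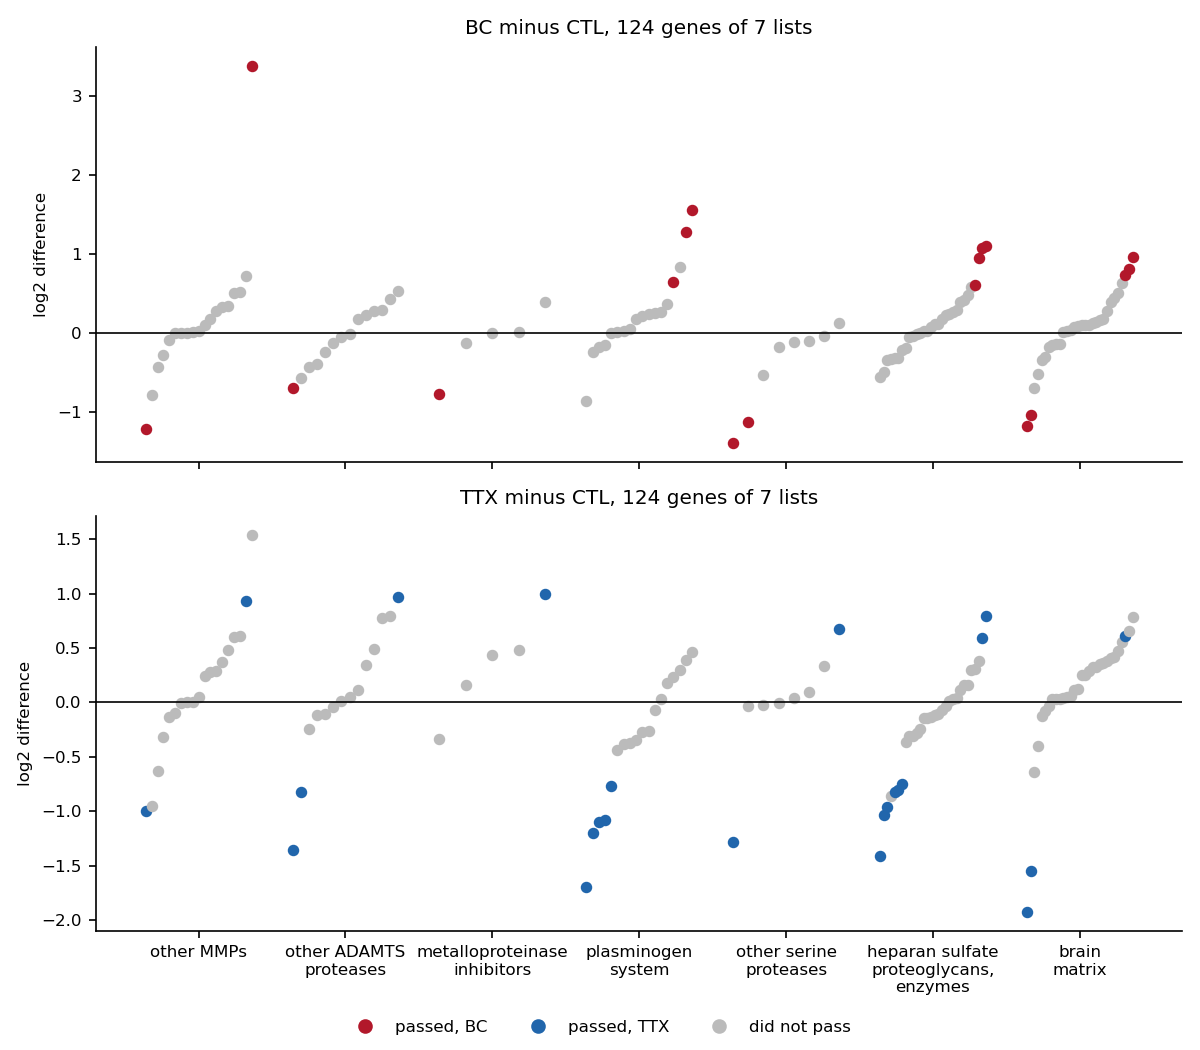
Log2 difference from CTL (vertical axes) of the 124 genes of 7 related lists (horizontal axis, ordered by value within a list), with BC above and TTX below; coloured points passed the threshold. In the plasminogen system all coloured points are above 0 with BC and below 0 with TTX.

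Several of these genes are also made by cells other than neurons, so marker lists were read on the same arrays. Of 16 markers of fibroblasts, endothelium and mural cells, 4 rose and 1 fell with BC, and 5 fell and none rose with TTX. With BC the endothelial Cldn5 (1.65, SE 0.30, adjusted p = 0.00671) and the smooth-muscle Tagln (1.33, SE 0.242, adjusted p = 0.00671) rose, Cldn5 from a CTL group with only 2 arrays above background, as did the fibroblast genes Dcn (0.87, SE 0.0902, adjusted p = 0.000254) and Lum (0.85, SE 0.0975, adjusted p = 0.000412). The 1 that fell with BC was Col6a1 (-0.77). With TTX, Col6a1 (-1.88, SE 0.192, adjusted p = 0.000194), Lum (-0.98, SE 0.0975, adjusted p = 0.000169) and Pdgfra (-0.79, SE 0.167, adjusted p = 0.0127) fell, and so did Rgs5, well above background on 2 CTL arrays and no TTX array. The summed linear signal of this list was 14039 to 17206 on the CTL arrays, 20905 to 27459 on the BC arrays and 9600 to 10729 on the TTX arrays, the same order as Hpse and without overlap. The median difference over the 16 genes was 0.32 with BC and -0.08 with TTX, and in each comparison 11 of 16 did not pass. Of the 16, 11 were well above background on all 12 arrays, among them the endothelial Kdr (0.32 with BC and 0.04 with TTX) and Cdh5 (0.12 and 0.00), and the endothelial Pecam1 was so on none. The sum weighs bright genes most, Lum, Dcn and Col6a1 among them. Col1a2, which did not pass, ran from 8.06 to 12.45 on the BC arrays (mean 9.21) and from 7.42 to 7.67 on the CTL arrays. Its highest BC array adds to the BC range of the sum. The part of these cells in the levels of the 9 genes was not tested.

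Of 11 microglia markers none passed against CTL in either comparison (2 had an unadjusted p under 0.05 in limma with BC, and 2 with TTX). Cd68 was lower with BC (-0.43, limma adjusted p = 0.0371) and TTX (-0.51, adjusted p = 0.0137), under the fold threshold. Of the 11, 6 were well above background on all 12 arrays (Csf1r, Cd68, P2ry12, C1qb, Tyrobp and Trem2) and Aif1 and Itgam on none. The summed signal overlapped between the groups (701 to 816 CTL, 628 to 819 BC, 604 to 756 TTX). None of 10 astrocyte markers passed (0 and 1 with an unadjusted p under 0.05). The 1 was Aldh1l1 with TTX (0.45, limma adjusted p = 0.0261), under the fold threshold. Of 10 neuron markers none passed with BC (4 with an unadjusted p under 0.05). Their summed signal was 162639 to 171336 on the BC arrays. That lay below all CTL arrays (181807 to 225385) and all TTX arrays (195685 to 219269). This sum too weighs bright genes most, Tubb3 among them. Tubb3 (-0.39, limma adjusted p = 0.0428) and Gad2 (0.38, adjusted p = 0.0399) stayed under the fold threshold with BC. With TTX Gad1 (-1.56, SE 0.0663, adjusted p = 8.13e-07) and Gad2 (-1.33, SE 0.0998, adjusted p = 2.62e-05), which make GABA, fell. The glutamate transporter Slc17a6 rose with TTX (0.59, SE 0.0689, adjusted p = 0.000422), a call lost in 8 of 27 alternatives. Of 9 oligodendrocyte markers none passed with BC (0 with an unadjusted p under 0.05).

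The genes whose signal ran most like each member over the 12 arrays were named by Pearson's r, which describes arrays that share treatment and slide. For Hpse these were Shc3 (r = 0.996), Etv1 (0.995) and Nppc (0.993). Their own differences were smaller: 1.24, 0.57 and 1.13 with BC and -0.90, -0.39 and -0.61 with TTX. For Mmp3 they were Uox (0.973), Blnk (0.971) and Scgn (0.965), and for Mmp9 Dusp5 (0.983), Nfil3 (0.978) and Pgm1 (0.977). Mmp13 was closest to Rab3c (0.981), Odf2 (0.978) and Nox1 (0.977), and Timp1 to Krtcap2 (0.973), Acsf3 (0.967) and Traf3ip1 (0.965). Among the genes closest to Plat were Ing4 (0.910) and Inpp5k (0.895). For genes below background on most arrays, likeness was not read.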

How the data were processed

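Total RNA of 12 samples, 4 each of CTL, TTX and BC, was hybridised to one-colour Agilent 4x44K rat arrays. Per the file headers, the authors' core extracted spot intensities with Feature Extraction 9.5.1.1, and the deposited processed signal is an intensity after background subtraction, with probe positions in build rn4. The authors also deposited log2 values, whose column medians were 7.372 to 7.378 and which the methods call quantile-normalized. They followed the rank order of the median signal without background subtraction (rank correlation at least 0.99998), 1 column had 1131 empty values, and they were used as an alternative. The deposited files also flag, as 0 or 1, spots well above background and outlier spots.

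Here log2 of the processed signal was taken, outlier spots (13 to 40 per array) were dropped, and arrays were quantile-normalized and fitted with limma 3.58.1 in R 4.3.3, 1 mean per group over all 12 arrays. Quantile normalization, limma and the thresholds follow the methods, whereas the background-subtracted input, the dropped spots and the joint fit were chosen here. Where a gene had several probes the brightest stood for it, and calls were made at a Benjamini-Hochberg adjusted p under 0.05 over all probes with a fold change of at least 1.5 in either direction. "At least" folds set the measured group against the lowest signal well above background on each array of the other. They hold for the main processing only. The number of arrays, 4 per group, limits the precision. The labels do not say whether samples came from separate cultures, so p-values measure the spread between samples, which may be technical.

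Names came from the files, updated through RefSeq by accession (10813 probes), symbol (5133) or synonym (3455), and 21611 probes kept the file's name. Members, lists and tests were chosen with earlier results of these data known. In each list and comparison with CTL, up to 4 called genes with the largest difference were named. Anxa2, Timp2, Timp3, Plg, Sdc2, Gpc2, Pecam1, Kdr, Cdh5, Col1a2, Aldh1l1, Tubb3, the microglia markers Csf1r, Cd68, P2ry12, C1qb, Tyrobp, Trem2, Aif1 and Itgam were named after their values were seen, as were Col6a1 and Gad2 with BC. Slides were scanned 1 after another, and slides 1 and 3 and slides 2 and 4 form pairs: deviations from group means correlated at 0.197 to 0.410 between arrays of different groups in the same pair and at -0.389 to -0.200 across pairs. Same-numbered CTL and TTX samples correlated at 0.279 to 0.377, and they always lay on the same slide pair. Same-numbered BC samples lay on the other slide pair (CTL and BC -0.348 to -0.241, BC and TTX -0.377 to -0.282). Differently numbered CTL and TTX arrays of a slide pair reached 0.410, so these values follow the slide layout and show no pairing by number. The fit was also run on simulated data with independent noise and no slide pairs, so that run cannot speak to error control under the slide pairs seen here. The 27 alternatives covered background, normalization, filter, probes, variance, slide, replicate block, samples fitted, threshold and leaving out each array. The study's quantitative PCR was not analysed here, and a few genes that the naming rule picked are not reported here.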

Additional observations from a re-analysis of the deposited data

Results flagged for a closer look

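None of the 9 genes had an array far from its group. Of 100 groups of 4 arrays read for named genes, those with at least 1 array well above background, 4 had 1 array farther from the others than Dixon's test allows at its 95% level, where chance gives about 1 in 20. Among related genes these were Serpinb2, highest on BC replicate 3 (log2 signal 6.30, next 6.07), and Gpc4, lowest on BC replicate 1 (9.893, next 10.11). Among markers, Cldn5 was highest on BC replicate 3 (5.706, next 5.202) and Lum lowest on CTL replicate 4 (12.07, next 12.43). Col1a2, named after its values were seen, was not among the groups read.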

How the results depend on the processing

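Directions held for every named difference past the threshold that was read under the alternatives, wherever these gave a value. Of the 27, 1 (the replicate block with only the compared groups) was chosen after seeing the data. Further calls were lost with TTX for Thbd in 12 of 26 alternatives, Rgs5 in 8 of 26, and Prss35 and Matn2 in 7 of 27 each. With BC, Serpinb2 lost its call in 7 of 27 and Ndst3 in 6 of 26. Counts of genes called with BC against CTL (1287), TTX against CTL (1494) and TTX against BC (3884) fell to 673, 786 and 2235 with a normexp background, 730, 834 and 2355 without background subtraction, and 729, 827 and 2339 in the deposited log2 values. Without a fold threshold they were 2890, 3469 and 8353. Members called with BC numbered 5, but 3 with normexp. For the 7 related lists (18, 24 and 37 called) normexp gave 11, 13 and 21, no subtraction gave 13 with TTX and 23 for TTX against BC, and the deposited values gave 13 and 22.

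With arrays of a slide pair averaged, limma called 0 genes with BC (7834 at an unadjusted p under 0.05), 0 members and 0 list genes (48 unadjusted), and 438 genes and 4 list genes with TTX. A random block for these pairs left 3 members called with BC, and the slide pair as a fixed block gave 2 members with TTX. With the replicate number as a block over all groups, genes called were 1127, 1270 and 3703. In fits of only the compared groups, the replicate block gave 217 genes, 2 members and 2 list genes with BC against CTL, and 2 members with TTX against CTL. The cause of these shifts was not tested.

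Leaving out 1 array at a time gave 1063 to 1346, 1235 to 1557 and 3603 to 3886 genes, 4 to 5, 1 to 2 and 4 to 6 members, and 12 to 18, 18 to 25 and 31 to 38 list genes in the 3 comparisons. The member gained with TTX was Mmp9, without CTL replicate 4. Signals near background, as for Mmp10, Adamts1 and Plau, limit what these arrays can show.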
